A study of Mus musculus with 6 samples.

Results

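The cortex at day 1 after stroke, the acute phase, was compared directly with the cortex at day 14, the late sub-acute phase. Genes were included when their value reached 1 FPKM, a read density scaled for transcript length and library size, in either library, which 11997 genes did, out of 12709 genes that reached this level in any of the 6 libraries of the series. Of the 11997 genes, 11589 were listed in both libraries, 245 at day 1 only and 163 at day 14 only. A gene without an entry in a library is called not listed, and no ratio is given for it.

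Stroke was made by photothrombosis in male C57/BL6J mice aged 6 to 8 weeks: the dye Rose Bengal was injected and light was shone through the skull over the sensorimotor cortex, so that clots formed in the lit vessels. Sham mice had the same operation without the light and were taken at day 7. RNA came from the ipsilateral cerebral cortex as a whole. At each time point RNA of 3 mice was pooled into 1 poly(A)-selected library, giving 1 library for sham and 1 for each of the days 1, 3, 7, 14 and 28 after stroke. Where 6 values are given for a gene, they run from sham through these days. No value therefore has a replicate check, no p-value is given, and "higher" below means a log2 ratio of at least 1 in size, taken after 0.1 FPKM was added to both values. Paired-end reads of 150 bases were sequenced to a stated average depth of 33.6 M, and how deep each single library was is not known from FPKM.

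Within hours of a cortical infarct, dying cells release their contents, and surviving neurons, glia and vessel cells switch on immediate early genes, stress genes and chemokines that draw neutrophils and monocytes. Circulating stress hormones act on the brain at the same time. Over the following weeks microglia and infiltrating macrophages clear debris, astrocytes wall off the lesion, fibroblasts lay down matrix, and antigen-presenting and interferon-responsive programmes can follow.

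The 2 libraries were first checked for the tissue they were labelled as. Neuronal (Snap25, 670 FPKM at day 1 and 486 at day 14), astrocytic (Slc1a3, 125 and 124) and oligodendrocyte (Mbp, myelin basic protein, 1591 and 1409) markers were abundant in both. Markers of neighbouring regions were present too. The striatal gene Penk stood at 154 and 205 FPKM, and the choroid plexus gene Ttr at 450 and 291. Hypothalamic neuropeptides summed to 81.3 FPKM at day 1 and 48.1 at day 14, against 12.4 in sham. Pmch, which encodes melanin-concentrating hormone, was not listed in sham and stood at 26.2 and 3.48 FPKM. Levels of these markers differed between the pools, and their part in the results below was not tested. The day 14 table was also the shortest, with 81985 events (transcript starts, ends and splicing events) against 90575 to 97289 in the other 5.

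In most genes the acute and the late library were close. The median log2 ratio of day 14 over day 1 was 0.06, with quartiles of -0.25 and 0.39, and 10318 genes (86.0%) were less than 2-fold apart. Across the compared genes, which are not independent replicates, Pearson's r of log10(FPKM + 1) was 0.929. In the remainder, 950 genes were higher at day 14 (7.92% of those compared) and 729 were higher at day 1 (6.08%). These counts include genes not listed in 1 of the 2 libraries, taken as 0 there. Among genes listed in both, 787 were higher at day 14 and 484 at day 1. With 1 FPKM required in both libraries, 445 genes were higher at day 14 and 257 at day 1. With the summed transcript starts alone as the gene value, the numbers were 827 and 1538, so the balance between the directions depended on how the gene value was built.

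**Figure D1:**
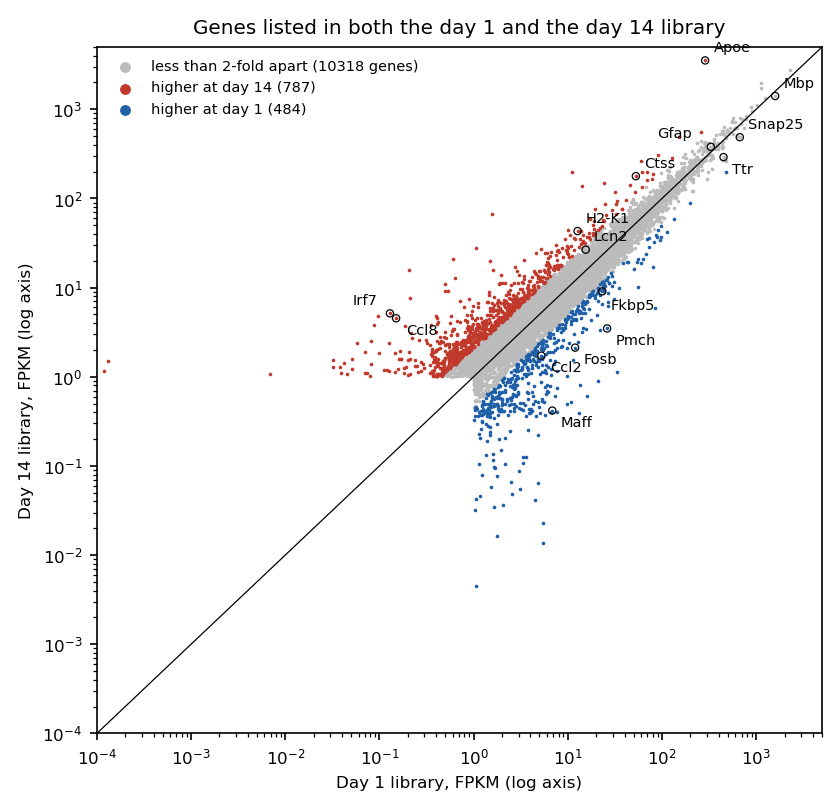
FPKM of each gene listed in both libraries, day 1 on the x axis and day 14 on the y axis, both on log axes, with the line of equal values. Most points lie along the line: 10318 genes are less than 2-fold apart (grey), 787 are higher at day 14 (red) and 484 higher at day 1 (blue), and a few genes discussed in the text are circled.

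The groups that stood apart were sought in 32 gene lists. The medians of MHC class II presentation (1.99), interferon-stimulated genes (1.76), disease-associated microglia and phagocytosis (1.62), MHC class I presentation (1.58), complement (1.5), homeostatic microglia (1.12) and pattern-recognition and inflammasome (1.02) lay at 1 or above, against 0.06 over all compared genes. Glucocorticoid-responsive genes (-1.30) were the only list with a median at or below -1. The other 24 lists had medians between -0.54, for immediate early and stress transcription factors, and 0.87, for lysosomal genes. List counts cover the members that reached 1 FPKM in either library, and a member that reached it in only 1 of them was more likely to differ. Members not listed in a library entered these medians as 0. Over members listed in both, the median of disease-associated microglia and phagocytosis was 1.30.

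**Figure D2:**
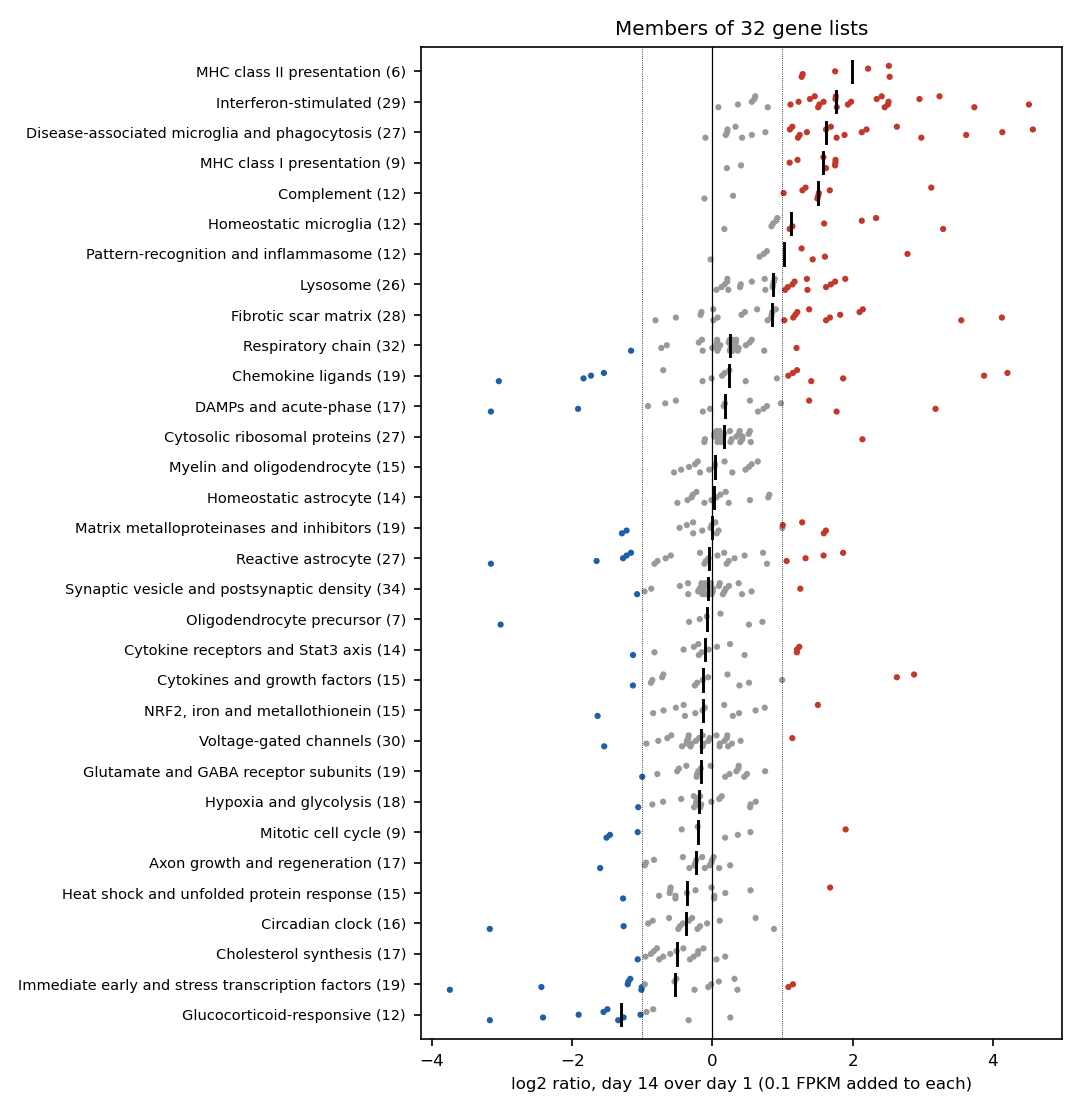
The log2 ratio of day 14 over day 1 (x axis) for each member of the 32 lists that is listed in both libraries. Points are red when higher at day 14, blue when higher at day 1 and grey in between, dotted lines mark ratios of 1 and -1, and black bars mark the median over all compared members, whose number is in parentheses. The immune lists at the top lie mostly to the right of 1, and the glucocorticoid-responsive list at the bottom lies mostly to the left of -1.

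Promoters are shown for members of 2 of these lists. RefSeq promoters on GRCm38.p6, from 250 bases before to 50 after a transcript start, were searched on both strands for 4 motifs. The core of the interferon-stimulated response element, GAAA, any 2 bases and GAAA again, was in 3.44% of all promoters and in at least 1 promoter of 3.62% of the compared genes that had one. Of the 29 compared interferon-stimulated genes, 20 had a promoter in the table and 10 held the motif: Oas1a, Bst2, Ifit1, Ifit3, Ifit3b, Gbp2, Gbp3, Rsad2, Stat2 and Trim30a. Oas1a and Bst2, which had the largest ratios among these genes when listed in both libraries, are shown, with the matches in capitals. In Oas1a, 2 overlapping matches end just before the start (chr5:120907526-120907775, minus strand). In Bst2, 2 overlapping matches lie farther upstream (chr8:71537473-71537722, minus strand).
Oas1a: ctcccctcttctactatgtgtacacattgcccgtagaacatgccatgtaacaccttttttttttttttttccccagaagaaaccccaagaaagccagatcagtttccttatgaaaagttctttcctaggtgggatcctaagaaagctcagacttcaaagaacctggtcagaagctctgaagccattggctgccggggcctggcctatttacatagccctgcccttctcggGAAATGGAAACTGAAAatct
Bst2: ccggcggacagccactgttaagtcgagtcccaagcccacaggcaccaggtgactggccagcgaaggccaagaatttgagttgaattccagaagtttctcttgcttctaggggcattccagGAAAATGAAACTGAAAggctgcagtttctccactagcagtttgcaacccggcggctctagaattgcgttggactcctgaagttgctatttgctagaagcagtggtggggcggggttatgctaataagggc

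The lists with the lowest medians were those of glucocorticoid-responsive and immediate early genes. The full cAMP response element TGACGTCA (1.79% of all promoters and 3.52% of compared genes) was in 2 of 14 immediate early genes with a promoter, Maff, higher at day 1, and Dusp1, which was less than 2-fold apart. The CArG box (1.63% and 1.53%) was in 1, Egr2, which was higher at day 14, and a core of the glucocorticoid response element, ACANNNTGT (6.85% and 5.02%), was in 1 of 11 glucocorticoid-responsive genes, Sgk1. The promoter of Maff (chr15:79347270-79347519, plus strand), the immediate early gene with the ratio farthest on the day 1 side, is shown with the match in capitals. Matches describe these windows and are not binding sites.
Maff: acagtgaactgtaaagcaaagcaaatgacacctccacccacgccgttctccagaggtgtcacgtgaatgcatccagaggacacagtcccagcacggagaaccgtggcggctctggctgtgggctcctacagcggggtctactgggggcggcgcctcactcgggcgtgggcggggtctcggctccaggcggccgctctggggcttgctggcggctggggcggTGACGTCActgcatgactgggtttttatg

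Interferon-stimulated genes were the largest group on the day 14 side. Of 34 genes in the list 29 were compared, 23 were higher at day 14, none at day 1, and 6 were less than 2-fold apart. Over all compared genes these shares were 7.92%, 6.08% and 86.0%. Irf7 (GRCm38 chr7:141262706-141266481, minus strand), the transcription factor that amplifies type I interferon, stood at 0.0669, 0.129, 0.798, 3.1, 5.14 and 1.18 FPKM from sham to day 28. Its log2 ratio of day 14 over day 1 was 4.52, or 22.9-fold. The day 1 value was close to the 0.1 FPKM added to both values, so the size of this ratio depends on that addition. Irf7 was among the 10 genes with the largest ratio. More cells of a type and more RNA per cell cannot be told apart in bulk tissue, here or in the groups that follow.

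Other members of the list were higher at day 14 as well. Oasl2, an oligoadenylate synthetase-like protein, was at 1.22, 0.884, 2.07, 4.84, 7.52 and 2.43 FPKM (log2 ratio of day 14 over day 1, 2.95). Oas1a, whose product makes the activator of RNase L, was not listed in sham and was at 0.492, 1.09, 2.71, 3.15 and 0.4 FPKM from day 1 to day 28 (2.46). Bst2, the membrane tether tetherin, was at 3.1, 4.55, 10.6, 21.0, 24.7 and 4.06 FPKM (2.41). In each of them day 7 and day 14 were the highest libraries. Ifi27l2a (1.6 FPKM at day 1 and 15.9 at day 14) and Usp18, the deconjugase of ISG15 (0.993 and 6.14), were also higher at day 14. Psmb9, an immunoproteasome subunit, was at 0.537, 0.189, 1.17, 2.53, 3.75 and 0.527 FPKM, and its day 1 value was at least 2-fold below each of the other libraries. Mx1 was not listed at day 1 and was at 1.31 FPKM at day 14.

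Not every interferon gene differed. Mx2 (1.28 and 2.01 FPKM, log2 ratio 0.61), Ifit2 (0.79) and Gbp3 (0.60) did not reach the threshold. Stat2, which carries the type I signal, was at 4.27 FPKM at day 1 and 4.53 at day 14, both above the 2.13 of sham. Irf1 was at 3.60 and 4.67 FPKM, against 1.65 in sham.

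Antigen presentation went the same way. All 6 compared genes of MHC class II presentation were higher at day 14, as were 7 of 9 of class I. The share over all compared genes was 7.92%. H2-Aa, the class II alpha chain, was at 1.16, 1.84, 5.47, 6.23, 11.1 and 2.38 FPKM from sham to day 28. H2-Ab1, its beta chain partner, was at 1.46 FPKM at day 1 and 8.83 at day 14, and the class II peptide-trimming protease cathepsin S (Ctss) at 52.8 and 178. The log2 ratios were 2.53, 2.52 and 1.75.

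On the class I side B2m, the light chain shared by all class I molecules, was at 71.1, 91.6, 155, 239, 308 and 91.6 FPKM from sham to day 28. H2-K1, a classical heavy chain, was at 9.38, 12.7, 12.3, 20.2, 43.1 and 14.2 FPKM in the same order, so that the day 14 library stood at least 2-fold above each of the others. H2-D1 was at 17.2 FPKM at day 1 and 58.2 at day 14. The log2 ratios were 1.75, 1.75 and 1.76. Tapbp (log2 ratio 0.21) and Tap2 (0.41), parts of the peptide-loading machinery, were less than 2-fold apart, while the transporter subunit Tap1 (1.62) was higher at day 14. Class I genes are near-identical copies of each other, so reads can be split between them and the values of single members are uncertain.

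Complement and phagocyte genes made up the next block. In the complement list 10 of 12 compared genes were higher at day 14 (7.92% of all compared genes), and none at day 1. C1qa, a chain of the initiating protein C1q, was at 42.5, 61.4, 152, 259, 196 and 50.6 FPKM from sham to day 28. C3, the central component, was not listed in sham or at day 1 and was at 1.32, 1.12, 8.25 and 0.607 FPKM from day 3 to day 28. C1qa therefore had its highest value at day 7, and C3 at day 14. The regulator Cd59a (3.81 and 3.52 FPKM) was close in both phases.

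In the disease-associated microglia and phagocytosis list 19 of 27 compared genes were higher at day 14, none at day 1. Of all compared genes 7.92% were higher at day 14. Lyz2, the lysozyme of myeloid cells, was at 6.73, 11, 137, 357, 196 and 26.2 FPKM from sham to day 28, a log2 ratio of 4.14 between day 14 and day 1. Gpnmb, a glycoprotein of lipid-laden phagocytes, was at 0.528, 1.06, 18.6, 68.9, 27.6 and 2.60 FPKM (4.57). Spp1, or osteopontin, was at 7.42, 24.3, 323, 783, 151 and 18.5 FPKM (2.63). In these 3 genes the day 14 value was below that of day 7, and day 1 was below day 3, although Spp1 was already over 2-fold above sham at day 1.

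Apoe, the main lipid carrier of the brain, differed from that course, with 716, 287, 1386, 855, 3534 and 1212 FPKM from sham to day 28. Day 1 was its lowest library and day 14 its highest. Trem2, the lipid-sensing receptor of microglia, was at 10.1 FPKM at day 1 and 44.4 at day 14, and its adaptor Tyrobp at 31.6 and 117. Cst7, a cathepsin inhibitor, was not listed at day 1 and was at 17.4 FPKM at day 14. The lectin receptor Clec7a was not listed at day 1 and was at 8.72 FPKM at day 14. The efferocytosis receptor Mertk (7.86 and 7.33 FPKM) and the tetraspanins Cd63 (82.0 and 93.6) and Cd9 (58.9 and 68.2) were near equal.

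Of 26 compared lysosomal genes 11 were higher at day 14 and none at day 1, with a list median of 0.87. The shares over all compared genes were 7.92% and 6.08%. Ctsd, the aspartic protease cathepsin D, was at 151 FPKM at day 1 and 486 at day 14 (1.69), and Cd68, the phagocyte lysosomal glycoprotein, at 6.11 and 19.0 (1.62). Lamp2, a membrane protein of all lysosomes, was at 35.8 and 37.2 FPKM.

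Of 5 compared microglia and macrophage markers 3 were higher at day 14, Aif1 (log2 ratio 1.59), Cd68 (1.62) and Cx3cr1 (3.29). The share over all compared genes was 7.92%. Cx3cr1 was at 0.098 FPKM at day 1 and 1.84 at day 14 and was not listed in any other library, sham included. Its ratio is therefore uncertain. The summed level of the list was 50.7 FPKM in sham, 39.8 at day 1 and 88.1 at day 14. P2ry12, the purinergic receptor of surveying microglia, was at 18, 7.01, 21.7, 17.7, 13.3 and 15.6 FPKM. Csf1r, the receptor that keeps microglia alive, was at 23.9, 21.6, 50.4, 52.3, 38.9 and 23.3. The log2 ratios of P2ry12 (0.91) and Csf1r (0.84) did not reach the threshold, and Tmem119 was listed in neither library. Of the T and NK cell markers Cd3d, Cd3e, Gzma, Nkg7 and Trac were listed at day 14 and not at day 1. Each was below 1 FPKM, and Trac was also listed in sham, with 0.644 FPKM against 0.387 in the late library. Summed over this list, sham had 3.20 FPKM, the acute library 1.84, the late library 6.77 and the day 28 library 4.72. Cd4 was the only member compared and the only one listed in the acute library, and its values there and in the late library were 1.84 and 4.43 FPKM. The part of cell numbers in the interferon, MHC, complement and phagocyte results was not tested.

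Matrix genes of the fibrotic scar were divided. Of 28 compared genes 12 were higher at day 14, 1 at day 1, and 15 were less than 2-fold apart. Over all compared genes these shares were 7.92%, 6.08% and 86.0%. The median of the matrix list was 0.85, and 0.20 with the summed transcript starts as gene value. Col3a1, a fibrillar collagen, was at 1.04, 0.639, 14.6, 21.6, 12.8 and 0.563 FPKM from sham to day 28, a log2 ratio of 4.13. Col1a1 was at 2.46, 3.07, 15.7, 21.2, 13.9 and 1.79 FPKM (2.15), and Postn, the matricellular protein periostin, was at 0.0694 FPKM at day 1 and 1.88 at day 14 (3.55). The values of Col3a1 and Col1a1 at day 1 were thus within 2-fold of sham, and basement membrane collagens differed little between the phases, with Col4a1 at 6.21 and 6.28 FPKM and Col4a2 at 6.60 and 6.96. Lox, the collagen cross-linking enzyme, was listed at 1.97 FPKM at day 1 and not at day 14. Among 8 meningeal markers 5 were higher at day 14, among them Mgp (51.5 and 119 FPKM) and Lum (1.87 and 6.87), and none at day 1. Of all compared genes 7.92% were higher at day 14. The summed level of the meningeal list was 1237 FPKM at day 1 and 2182 at day 14, of which Mgp and Lum were a small part. The part of meningeal tissue in the matrix values was not tested.

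**Figure D3:**
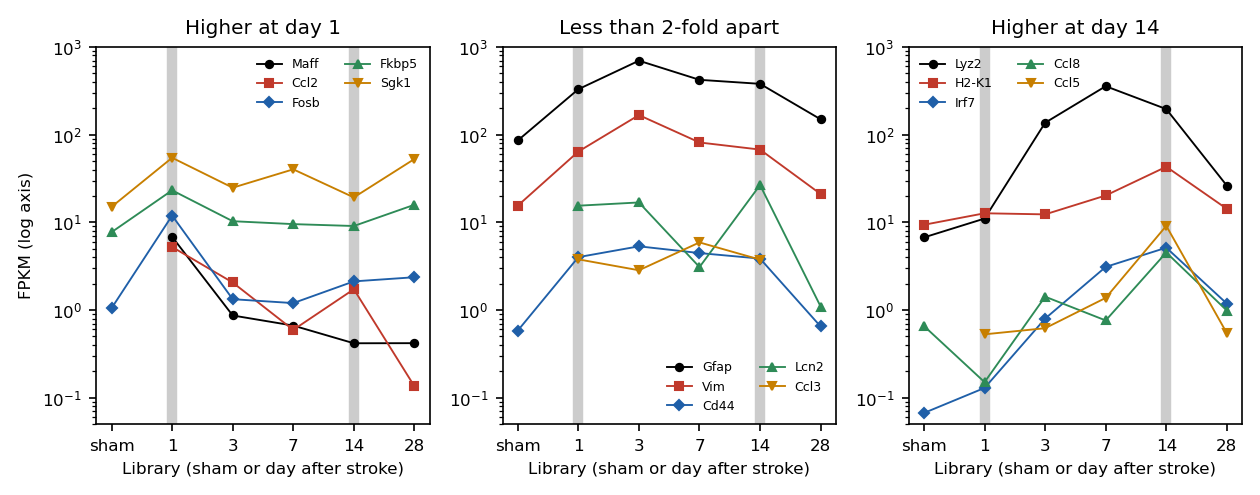
FPKM (log axes) of 15 genes in the 6 libraries, with grey bands at day 1 and day 14 and no point where a gene is not listed. Maff falls from 6.84 FPKM at day 1 to 0.418 at day 14 in the left panel, Gfap is at 330 and 380 in the middle panel, and Irf7 is at 0.129 and 5.14 in the right panel.

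On the day 1 side the glucocorticoid-responsive list stood out. Of its 12 genes, all compared, 8 were higher at day 1, none at day 14. Over all compared genes these shares were 6.08% and 7.92%. Cdkn1a (GRCm38 chr17:29090976-29100727, plus strand), the cell-cycle inhibitor p21, was at 3.85, 55.3, 11.7, 10.1, 10.3 and 8.21 FPKM from sham to day 28. Errfi1, a feedback inhibitor of the EGF receptor, was at 6.41, 21.2, 7.59, 7.04, 7.14 and 10.4 FPKM. In both genes the day 1 library stood at least 2-fold above each of the other 5.

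Sgk1, a kinase induced by corticosteroids, was at 15.0, 54.5, 24.8, 40.2, 19.3 and 52.8 FPKM from sham to day 28, so that its day 28 value was near its day 1 value. Fkbp5, a chaperone that restrains the glucocorticoid receptor, was at 7.72, 23.2, 10.3, 9.55, 9.08 and 15.9 FPKM, and Per1, which is both a clock gene and a glucocorticoid target, was at 9.63, 27.2, 11.4, 10.6, 11.3 and 19.2. The log2 ratios of Fkbp5 and Per1 were -1.34 and -1.27. Zbtb16 had the largest ratio in size of the list (-3.17), with 4.73, 7.63, 4.21, 3.22, 0.756 and 5.19 FPKM. Its day 14 value was below every other library, unlike Cdkn1a, where day 1 was above. With the summed transcript ends as gene value the median of the list was -0.84 instead of -1.30.

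Of the other clock genes, Per3 was at 4.98 FPKM at day 1 and 0.462 at day 14, where it was lowest of the 6 libraries. Dbp (42.5 and 40.4 FPKM) and Nr1d1 (32.2 and 34.6), which cycle strongly over the day, were near equal. Cry1 (log2 ratio -0.92), Clock (0.88) and Ciart (-0.85) came closer to the threshold. In all, 14 of 16 clock genes were less than 2-fold apart, a share near the 86.0% of all compared genes, and the list median was -0.38. The hour at which tissue was taken was not given in the sources used here.

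Immediate early and stress transcription factors were split, with 8 of 19 compared genes higher at day 1 and 2 at day 14. The shares over all compared genes were 6.08% and 7.92%. Maff, a small MAF factor, was not listed in sham and was at 6.84, 0.867, 0.664, 0.418 and 0.419 FPKM from day 1 to day 28 (log2 ratio -3.74). Fosb, a subunit of AP-1, was at 1.05, 11.9, 1.33, 1.20, 2.12 and 2.37 FPKM (-2.44), and Myc was at 1.33, 3.66, 1.73, 1.54, 1.54 and 0.582 (-1.20). These 3 genes were highest at day 1, at least 2-fold above any other library. Fos was at 16.1 FPKM at day 1 and 7.09 at day 14, but at 13.9 at day 28. The activity-regulated genes Egr1 (log2 ratio -0.02) and Npas4 (-0.06) did not differ by the threshold, while Arc (1.09) and Egr2 (1.15) were higher at day 14. Atf3, the injury-response factor, was not listed in sham or at day 28 and was at 5.89, 2.94, 4.39 and 2.97 FPKM in between, a log2 ratio of -0.96 just under the threshold.

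Among stress genes of other lists, Hmox1, which degrades heme, was at 2.20, 27.0, 65.2, 19.7, 8.60 and 3.63 FPKM from sham to day 28. Hspb1, the small heat shock protein Hsp27, was at 3.99, 23.9, 9.43, 5.46, 9.83 and 5.92 FPKM. Both were higher at day 1, with log2 ratios of -1.64 and -1.27. In each of their lists 13 of 15 genes were less than 2-fold apart, a share near the 86.0% of all compared genes. In the hypoxia and glycolysis list 17 of 18 were, and Adm, the vasodilator adrenomedullin and the exception, was at 2.92 FPKM at day 1 and 1.35 at day 14. Bdnf, the neurotrophin, was at 6.70, 12.2, 4.99, 5.27, 5.53 and 5.88 FPKM from sham to day 28. Its most upstream listed start, which carried 37.8% of the summed starts at day 1, carried 26.6% at day 14.

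Chemokine ligands divided between the phases, with 4 of 19 compared genes higher at day 1, 7 higher at day 14 and 8 less than 2-fold apart. Over all compared genes these shares were 6.08%, 7.92% and 86.0%. The neutrophil attractants Cxcl1 (0.781, 2.72 and 0.252 FPKM in sham, day 1 and day 3, and 0.751 at day 14) and Cxcl2 (1.97, 0.222 and 0.15 FPKM at day 1, day 3 and day 14) were higher at day 1. The monocyte attractant Ccl7 was at 1.98, 0.938, 0.405 and 0.483 FPKM from day 1 to day 14, and Ccl2 at 5.24, 2.06, 0.594 and 1.73. All 4 genes were highest at day 1, at least 2-fold above each of the other libraries. Cxcl5, also a neutrophil attractant, went the other way without reaching the threshold (log2 ratio 0.92). It was at 0.048, 1.18, 1.98, 1.01, 2.32 and 0.439 FPKM from sham to day 28.

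On the other side Ccl5, which attracts T cells, was not listed in sham and was at 0.528, 0.62, 1.38, 9.12 and 0.545 FPKM from day 1 to day 28. Ccl8 was at 0.657, 0.150, 1.42, 0.760, 4.53 and 0.986 FPKM from sham to day 28. Cxcl10, the interferon-induced ligand of CXCR3, was at 2.21, 1.17, 3.42, 8.33 and 0.391 FPKM from day 1 to day 28. For these 3 genes day 14 was the highest library, at least 2-fold above each of the others. The log2 ratios of day 14 over day 1 were 3.88, 4.21 and 1.86. The macrophage inflammatory proteins Ccl3 (3.78 and 3.76 FPKM) and Ccl4 (2.53 and 2.28) were present at nearly the same level in both phases, and neither was listed in sham.

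Several inflammatory genes were present in both phases, with less at day 7. Lcn2, the siderophore-binding protein lipocalin-2, was not listed in sham and was at 15.5, 16.9, 3.09, 26.6 and 1.10 FPKM from day 1 to day 28. S100a8, a calgranulin of neutrophils and other myeloid cells, was at 0.0729, 6.18, 1.59, 0.682 and 3.84 FPKM from sham to day 14 and was not listed at day 28. Its partner S100a9 was listed at day 1 (10.1 FPKM) and day 14 (5.32) only. Their log2 ratios of day 14 over day 1 were 0.78, -0.67 and -0.92, so none reached 2-fold.

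The interleukin genes Il1b, Il1a and Il6 were low and did not share this course in full. Il1b was at 1.16 FPKM in the acute library, 0.626 at day 3 and 1.11 in the late one, and was not listed in the other 3. Il1a was at 0.886 and 0.971 FPKM at day 1 and 14, with 1.17 at day 7. Il6 was listed at day 7 only, at 0.329 FPKM, and the chemokine receptor Cxcr2 at day 1 only, at 0.294. Il1a, Il6 and Cxcr2 did not reach 1 FPKM at day 1 or day 14 and were not compared.

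Of the other neutrophil markers only Retnlg reached 1 FPKM at either time. It was at 1.34 FPKM at day 1 and 0.133 at day 14 and in no other library. Ngp (0.792 FPKM) and Mmp8 (0.567) were listed at day 1 and not at day 14, Camp (0.121) at day 14 and not at day 1, and Mmp9 was at 0.569 and 0.849 FPKM. The summed level of the neutrophil list was 0.0729 FPKM in sham, 19.9 at day 1 and 10.3 at day 14. S100a8 and S100a9 are members of this list and made up most of the sum, which is therefore not a separate measure of neutrophils. The part of neutrophils in the S100a8 and S100a9 values was not tested.

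Other secreted inflammatory genes did separate the phases. Ptx3, the long pentraxin of the acute phase response, was at 9.83, 1.92, 0.942 and 1.01 FPKM from day 1 to day 14, and was not listed in sham or at day 28. Saa3, serum amyloid A3, was at 0.408, 2.37, 1.59, 4.51 and 0.221 FPKM from day 1 to day 28. Both belong to the acute-phase proteins, and their log2 ratios were -3.16 and 3.18.

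Reactive astrocyte genes included members at equal levels and members that differed in either direction. Of 27 compared genes 16 were less than 2-fold apart, a smaller share than the 86.0% of all compared genes, 5 were higher at day 14 and 6 at day 1, with a median of -0.05. Gfap, the astrocytic intermediate filament, was at 85.8, 330, 698, 422, 380 and 150 FPKM from sham to day 28. Vim, vimentin, was at 15.5, 64.2, 167, 81.5, 67.6 and 21.0 FPKM, and Cd44, the hyaluronan receptor, was at 0.582, 4.01, 5.33, 4.46, 3.86 and 0.649. In these genes day 1 and day 14 lay at the same height on either side of a maximum at day 3. The log2 ratios were 0.20, 0.07 and -0.05.

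The members that differed did so in both directions. Timp1, an inhibitor of metalloproteinases, was at 0.278, 16.2, 16.5, 5.33 and 6.86 FPKM from sham to day 14, and Tgm1, a transglutaminase, was at 6.13, 9.38, 1.62 and 1.88 FPKM from day 1 to day 14. Nes, the filament of immature astrocytes, was at 4.42 FPKM at day 1 and not listed at day 14. These were on the day 1 side with Ptx3, Hspb1 and Emp1. On the day 14 side were C3, Cxcl10, Gbp2, Serping1 and Steap4, of which C3 and Cxcl10 are given above. Of 14 homeostatic astrocyte genes none was higher in either phase, and the median was 0.02. Over all compared genes 86.0% were less than 2-fold apart. Glul, glutamine synthetase, was at 507 and 528 FPKM, and Slc1a2, the main glutamate transporter, at 148 and 126, against 200 in sham.

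Neuronal lists were close between the phases, with medians of -0.07 for 34 synaptic genes, -0.16 for 30 voltage-gated channels and -0.16 for 19 receptor subunits. The 7 compared neuron markers lay further to the day 1 side, with a median of -0.45 and 6 of them less than 2-fold apart. Syp, a synaptic vesicle protein, was at 446, 473, 339, 374, 475 and 399 FPKM from sham to day 28. Slc17a7, the vesicular glutamate transporter of cortical excitatory neurons, was at 303, 300, 248, 231, 164 and 251 FPKM. Its log2 ratio of -0.87 did not reach the threshold. In the synaptic list 31 genes were less than 2-fold apart, a share near the 86.0% of all compared genes. In this list 2 were higher at day 1 (Homer1, 25.7 and 12.2 FPKM, and Rims1, 16.5 FPKM and not listed at day 14) and 1 at day 14 (Bsn, 9.94 and 23.9 FPKM, a direction that turned with the start events alone).

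The AMPA receptor subunit Gria2 was at 119, 69.5, 78.5, 87.7, 34.7 and 109 FPKM from sham to day 28, so that its log2 ratio was just past the threshold. The NMDA receptor subunit Grin2a was at 7.15 FPKM at day 1 and not listed at day 14. The calcium-activated potassium channel Kcnma1 was at 16.9, 7.08, 14.5, 6, 2.37 and 15.3 FPKM. All 3 were lowest or not listed at day 14, and Map2, the dendritic microtubule protein, also was, with 113, 68.4, 164, 91.7, 23.7 and 69.5 FPKM. Summed over the neuron markers, the level was 1452 FPKM at day 1 and 1021 at day 14. The longest transcripts of Gria2 and Map2 are 10371 and 6258 nt.

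Myelin genes stayed within the threshold, with 15 of 15 less than 2-fold apart (median 0.03). Among 17 genes of cholesterol synthesis 16 were less than 2-fold apart, with a median of -0.51. Over all compared genes the share less than 2-fold apart was 86.0%. Hmgcs1, an early enzyme of the pathway, was at 82.5 FPKM at day 1 and 44.9 at day 14 (log2 ratio -0.88). In the mitotic list 9 of 28 genes were compared. The helicase subunits Mcm5 (2.43 and 0.787 FPKM) and Mcm6 (2.81 and 0.955) were higher at day 1, and Top2a was at 1.64 and 1.87, with 12.8 at day 3. Cytosolic ribosomal proteins had a median of 0.17, which became -0.01 once ratios were corrected for transcript length, and the respiratory chain had 0.25, which became 0.01.

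Each called gene was also placed among all 6 libraries, to see which of the 2 libraries set it apart. Of the 729 genes higher at day 1, day 1 stood at least 2-fold above each of the other libraries in 65 (0.542% of the compared genes), and day 14 stood at least 2-fold below each of the others in 388 (3.23%). Of the 950 genes higher at day 14, day 14 was alone high in 68 (0.567%) and day 1 alone low in 136 (1.13%), and in 746 the difference was shared with other libraries. In over 1 of every 2 genes higher at day 1, then, the day 14 library alone was low.

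Without the genes in which day 14 alone was low, 341 were higher at day 1, and without those in which day 1 alone was low, 810 were higher at day 14. The 10 genes with the largest ratios on the day 1 side all had day 14 as the single low library. Mbd5, a methyl-CpG-binding domain protein, was at 4.97, 5.46, 5.96, 7.4, 0.0136 and 8.20 FPKM. Adarb1, an RNA-editing enzyme, was at 14.8, 33.0, 10.8, 30.4, 1.12 and 12.3 FPKM, and Diaph1, an actin-nucleating formin, was at 22, 20.9, 15.6, 10.8, 0.895 and 10.8. The others were Dlc1, Phip, Cbl, Cd2bp2, Mrtfb, Nwd2 and Arhgef12. In Adarb1 the start that carried 71.2% of the summed starts at day 1 was not listed at day 14.

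The day 14 side was mixed. Of its 10 genes with the largest ratios, Irf7, Gpnmb and Ccl8 are described above. Tor1a, Rin2 and Igsf9b were genes with day 1 as the single low library, such as Tor1a, the AAA+ ATPase torsinA, at 20.2, 0.204, 4.69, 13.6, 15.8 and 19.0 FPKM. Rpl29 and Rpl41 encode ribosomal proteins with many near-identical copies in the genome, and Rpl41 was at 179 FPKM in sham, 0.491 at day 1, 11.1 at day 14 and 12.1 at day 28. Their ratios are uncertain for this reason. Gm45769 and Lsm10 completed the 10.

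Among genes listed at only 1 of the 2 time points, 182 of the 245 listed at day 1 only had a value in each of the other 4 libraries, as did 56 of the 163 listed at day 14 only. Psd3 was at 40.8 FPKM at day 1 and Apc at 24.4, with 51.1 and 25.6 at day 28, and neither was listed at day 14. Clec2d, a ligand of an NK cell receptor, was listed at day 14 only, at 11.7 FPKM. A gene missing from the day 14 table alone was thus more frequent than one missing from the day 1 table alone.

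Transcript length went with the ratio. Across 11990 genes Spearman's rho between the length of the longest annotated transcript and the log2 ratio was -0.248, given as a description, since all genes share the same 2 libraries. The median length was 2744 nt for genes higher at day 14, 4583 nt for genes higher at day 1 and 3372 nt for genes less than 2-fold apart. In the 388 genes with day 14 alone low it was 5792 nt, while in the 65 genes with day 1 alone high it was 2006 nt. In the bin of shortest transcripts (median 618 nt) 14.1% of genes were higher at day 14 and 4.69% at day 1, and in the bin of longest transcripts (9838 nt) 9.0% and 16.2%. The median ratio fell from 0.26 in the first bin to -0.08 in the last.

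**Figure D4:**
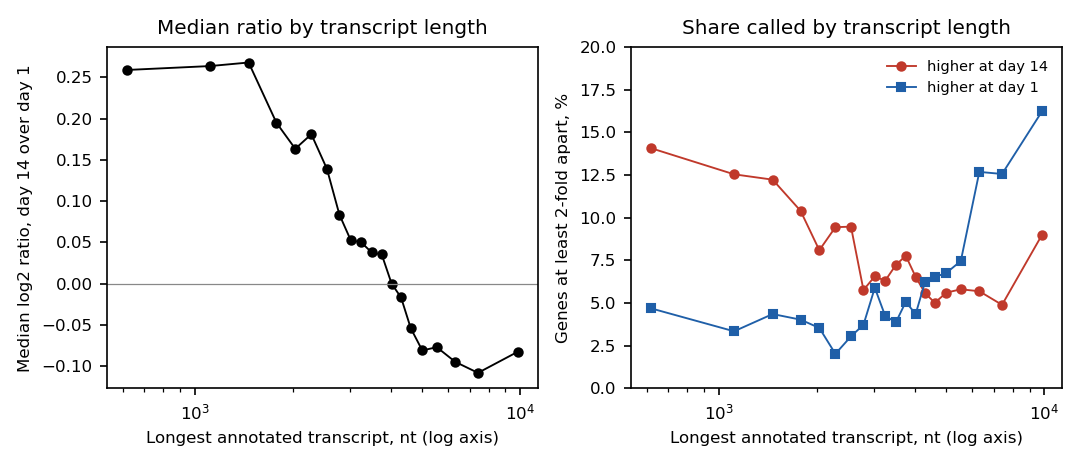
Left, the median log2 ratio of day 14 over day 1 (y axis) for genes listed in both libraries in 20 bins of transcript length (x axis, log). Right, the percentage of compared genes in each bin that were higher at day 14 (red) or at day 1 (blue), which is 14.1% and 4.69% in the shortest bin and 9.0% and 16.2% in the longest.

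Corrected for this trend, 861 genes were higher at day 14 and 768 at day 1. The medians of the interferon-stimulated (1.56), class II (1.75), class I (1.44), complement (1.24), phagocytosis (1.36) and glucocorticoid-responsive (-1.30) lists stayed beyond 1 in size. The methods of the study state an RNA integrity minimum that all samples passed. RNA quality of each pool was not used here, and its part in the length trend was not tested.

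Transcript structure was mostly shared. The tables list 91177 events at day 1 and 81985 at day 14, of which 70545 were common, or 77.4% of those at day 1 and 86.0% of those at day 14. Among 9428 genes with at least 1 FPKM and a start inside the annotated gene in both libraries, 8422 (89.3%) had the same leading start, the one with the highest FPKM. Of 4736 genes with more than 1 start, 3793 (80.1%) did.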

How the data were processed

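The authors deposited 1 table per library with an FPKM for each transcript start (TSS), transcript end (TTS) and splicing event and the Ensembl gene it was assigned to. The submitters' processing notes name Trimmomatic 0.30, HISAT2 2.0.1, HTSeq 0.6.1 and mm10; the assembler is not given in the sources used here, and libraries were strand-specific. The value of a gene was the largest of its summed TSS FPKM, its summed TTS FPKM and any single event. Exact duplicate rows were dropped. Of 15441 genes with a value, 15429 matched the GENCODE M21 annotation (GRCm38), which gave symbols and the longest transcript.

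Genes with at least 1 FPKM in either library were compared by log2((day 14 + 0.1)/(day 1 + 0.1)) at a threshold of 1. Genes not listed counted as 0 in counts and medians. With 1 library per time point no test was run. The length trend was the median ratio in each of 20 bins of transcript length. Named genes are the 10 with the largest and the 10 with the smallest ratios (at least 90% of the value inside the annotated gene), 5 listed in each library only, 9 genes described for both phases, up to 8 members of each of 32 lists (5 with the largest and 3 with the smallest ratios in size) and 17 lists of markers. The other genes named, such as Gfap, Apoe, Ccl2, Fkbp5, Fos, Oas1a, Bst2, Oasl2, Usp18, Tyrobp, Timp1, Egr2, Arc, Mx2, Ifit2 and Emp1, were chosen after their values were seen, and members and lists were chosen with earlier results of these data known. Alternatives were tried for how the gene value is built, the minimum level, the threshold, the pseudocount, centring and transcript length. Scripts were tested on simulated data. The scripts ran under Python 3.11.15 with scipy 1.17.1, matplotlib 3.10.9, pandas 2.3.3 and numpy 2.4.6. A few genes are not reported here.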

Additional observations from a re-analysis of the deposited data

Results flagged for a closer look

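In 6 named genes the day 1 and day 14 libraries lay at least 2-fold from sham in opposite directions. With 1 library per time point these differences were not tested. Ccl8 had a log2 ratio to sham of -1.6 at day 1 and 2.61 at day 14, the immunoproteasome gene Psmb9 -1.14 and 2.59, and the inflammatory caspase Casp4 -1.63 and 1.15, the last from 0.436 FPKM in sham, 0.0732 at day 1 and 1.09 at day 14. Apoe had -1.32 and 2.30. Gm45769, an unclassified locus, had -3.33 and 1.59. Adarb1 went the other way, with 1.16 at day 1 and -3.61 at day 14.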

How the results depend on the processing

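No paired analysis was possible because each time point has 1 library and the labels give no replicate numbers. No library could be left out for the same reason. The number of genes higher at day 14, 950, was 552 with a pseudocount of 1, 445 with 1 FPKM in both libraries, 329 with 5 FPKM in either, 1648 with no filter, 299 at a log2 threshold of 2 and 1983 at 1.5-fold. The number higher at day 1, 729, was 257 with 1 FPKM in both libraries, 245 with 5 FPKM in either, 1389 with no filter, 1538 with summed TSS, 484 for genes listed in both libraries, 379 at a threshold of 2 and 1376 at 1.5-fold. Under alternatives chosen after seeing the data, 501 and 384 genes were also called with both the TSS and the TTS sum, and 341 were higher at day 1 without genes in which day 14 alone was low. The cause of these shifts was not tested beyond what the filters and thresholds remove by construction. The pattern-recognition median (1.02) was 0.61 with a pseudocount of 1, 0.73 with 1 FPKM in both libraries, 0.92 with no filter, 0.96 when centred and 0.86 when corrected for length. The glucocorticoid-responsive median was -0.84 with summed TTS. The immediate early (-1.01) and mitotic (-1.23) medians passed -1 with summed TSS, and the fibrotic scar matrix median (0.85) was 1.20 at 5 FPKM in either library and 0.20 with summed TSS. Of 3569 recomputed ratios of 351 named genes, 3485 kept their side of the threshold. A ratio under 1 in size counted as kept even if its sign changed, as long as it stayed under 1. In 6 a ratio under 1 in size passed 1 in the opposite direction. Among ratios of at least 1 in size, 4 reversed: with summed TSS Gpr34 (-3.90), Bsn (-2.64) and Col6a1 (-0.26), and with summed TTS Folr1 (0.33). Values under 1 FPKM are the least certain, and the depth of each library is unknown.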

Other observations

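Endothelial genes, not described above, were divided, with 2 of 7 compared markers higher at day 14, 2 at day 1 and 3 less than 2-fold apart. Over all compared genes these shares were 7.92%, 6.08% and 86.0%. Slco1a4, an organic anion transporter of brain capillaries, was at 11.5, 2.68, 14.5, 10, 11.1 and 11.2 FPKM from sham to day 28, so that day 1 was its single low library. Cdh5, the endothelial cadherin, was at 2.85 FPKM at day 1 and 3.02 at day 14, and Pecam1 at 3.64 and 4.02. Flt1, a VEGF receptor, was at 2.70 FPKM at day 1 and not listed at day 14. Cldn5, a tight junction protein, was listed at day 1 only, at 1.03 FPKM, just above the 1 FPKM needed to be compared. The 2 markers counted as higher at day 1 thus both rest on a missing day 14 entry.

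The growth factor Igf1 was at 0.833, 0.575, 2.84, 11.2, 4.86 and 1.12 FPKM from sham to day 28. Vegfa was at 21.2, 20.2, 16.3, 18.5, 11.1 and 15.6 FPKM in the same order, and was thus lowest at day 14. Iron handling showed Slc40a1, the iron exporter ferroportin, at 2.35 FPKM in sham, 0.792 at day 1 and 2.43 at day 14, while the iron-storage subunit Ftl1 was at 183, 262 and 440.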
